A study of Homo sapiens with 6 samples.

Results

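The EGF receptor family and its ligands were followed here as 10 genes: the receptors EGFR, ERBB2 and ERBB3, the ligand genes TGFA, EREG, AREG, HBEGF, BTC and EPGN, and the inhibitor gene ERRFI1. They were chosen as a named list and found by matching Ensembl identifiers to symbols, and all 10 were among the 19493 genes with values. All 10 passed the filter on low values that left 11926 genes for testing (at least 1 cRPKM, a length-corrected and depth-corrected read count, in at least 2 libraries), although AREG did so on a handful of reads, as described with its values. HaCaT, a spontaneously immortal human keratinocyte line, was used throughout, and cells of all 3 groups expressed a CPD photolyase from the marsupial Potorous tridactylus. A CPD photolyase uses visible light to reverse cyclobutane pyrimidine dimers, the main lesion that ultraviolet light leaves in DNA. The control group was untreated and its photolyase was inactive. The UVC group was given 15 J/m2 at 254 nm, with the photolyase inactive, and was harvested 6 h later. The group called UVC with active photolyase was given the same dose and in addition 2 h of white light, so that photolyase activity and white light itself cannot be told apart. This group too was harvested 6 h after UVC, and no harvest time is labelled for the control group. Each group held 2 libraries. Whether the libraries of a group stem from different cultures is not labelled, and a p-value here therefore reflects only the scatter of these libraries, which may be technical. Neither the promoter of the photolyase nor clonality of the cells is stated in the labels.

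Receptors of this family are tyrosine kinases of the cell surface that work as pairs. Ligands are made as membrane-anchored precursors, are cut free by ADAM proteases and bind EGFR or its relatives on the same or neighbouring cells. Keratinocytes make several of these ligands and use them as autocrine signals for growth, migration and wound closure. ERBB2 binds no known ligand and serves as a partner for the other receptors, ERBB3 is a weak kinase that binds neuregulins, and ERRFI1 (also called MIG6) binds the kinase domain of EGFR and its relatives and dampens it.

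The libraries held 57669389 to 70005705 gene counts. Levels are given as scaled cRPKM, the deposited cRPKM divided by a factor that aligns the libraries on the bulk of their genes (TMM). TMM takes most genes as unchanged and says nothing of the RNA content of a cell. Changes are log2 fold changes with a standard error (SE) from edgeR, and a call means an adjusted p, over all genes tested, under 0.05. All 8 keratinocyte markers were tested, and their summed level was 31270 to 32210 in control, 18102 to 18532 after UVC and 29939 to 29962 with active photolyase. Among markers of other lineages, 1 of 7 passed the filter for melanocytes, with TYR at 0 in all libraries. For fibroblasts 2 of 7 passed and, of 3 found, 1 for endothelium. Of the immune cell markers 4 of 7 passed, namely CD3E, CD14, CD68 and CD74. Summed marker levels were 1.35 to 2.25 for melanocytes and 7.33 to 9.59 for fibroblasts over all libraries. The immune cell list summed to 133 to 146 in control, 181 to 183 after UVC and 188 to 199 with active photolyase, while its untested members reached at most 0.313. Endothelial markers summed to 4.65 to 4.69, 0.990 to 1.07 and 3.11 to 3.35 in the same order. The part of these shifts in the results below was not tested. In bulk RNA, fewer cells that express a gene and less of its RNA per cell cannot be told apart.

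After UVC, 7 of the 10 genes fell, 1 rose and 2 were not called (85.6% of all genes tested were called, 43.1% lower and 42.5% higher). The fall was deepest in TGFA, which dropped to a small fraction of its control level, and next in EREG, while HBEGF and EGFR fell by far less and ERBB2 rose. With active photolyase TGFA, EREG, HBEGF, EPGN, ERBB3 and ERRFI1 were higher than after UVC alone, and ERBB2 and, marginally, EGFR were lower (79.1% of all genes were called, 39.2% higher and 39.9% lower). Against control, active photolyase left 8 of the 10 called lower and none higher (65.8% of all genes were called, 32.9% lower and 33.0% higher).

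**Figure D1:**
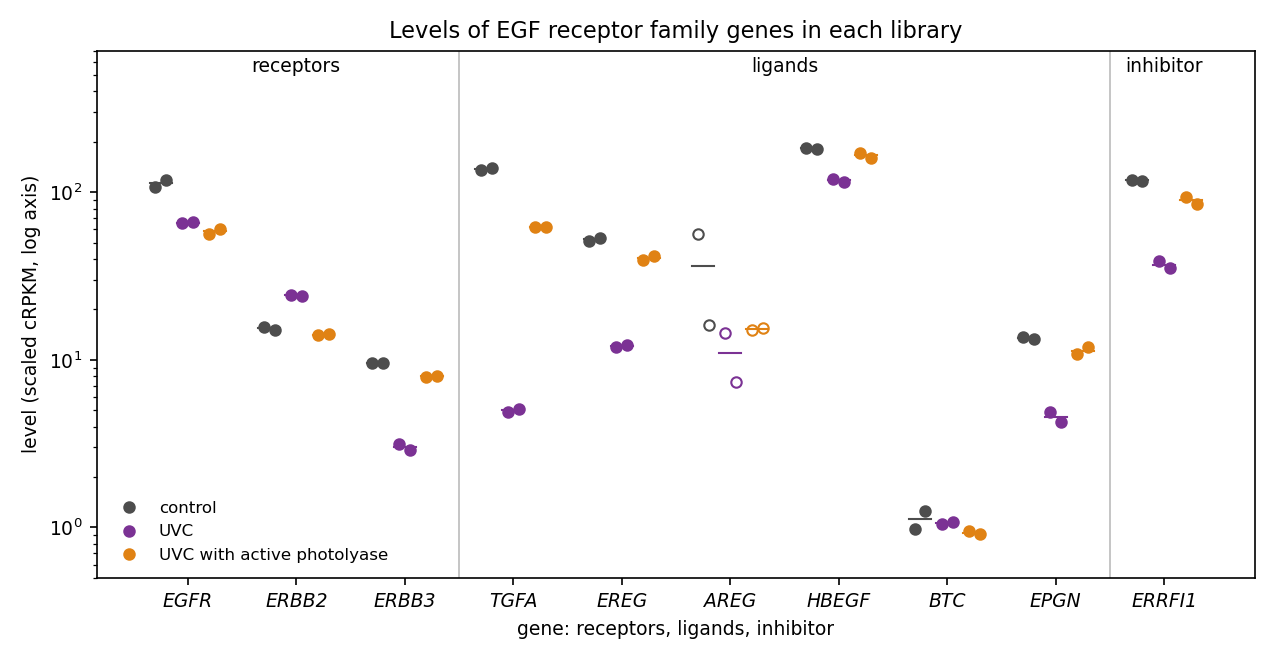
Scaled cRPKM (log axis) of each of the 10 genes, with a point for each library and a short line at the mean of the 2 libraries of a group. TGFA stands at 136 and 140.4 in control and at 4.87 and 5.11 after UVC, EGFR is lowest with active photolyase, ERBB2 is highest after UVC, and the open AREG points rest on 1 to 7 reads each.

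EGFR (ENSG00000146648), the receptor that the 6 ligands of the list can bind, had the highest level of the 3 receptors in each library. Control libraries held 107 and 119 scaled cRPKM, UVC libraries 65.2 and 66.5, and active-photolyase libraries 56.7 and 60.8. The 3 groups did not overlap, and the order was control, UVC, active photolyase from high to low. Relative to control, EGFR fell after UVC (-0.78 ± 0.06 on the log2 scale, edgeR adjusted p = 3.44e-08), from 113 ± 8.28 to 65.8 ± 0.899 (SD, n = 2 each). With active photolyase it stood at 58.8 ± 2.89, further below control (-0.95 ± 0.06, edgeR adjusted p = 3.17e-08), and only 294 of the 11926 genes tested had a lower log2 fold change in that comparison. Between active photolyase and UVC the change was small, at -0.16 ± 0.06 (edgeR adjusted p = 0.0255). That last call was lost without UVC replicate 1 (-0.18, edgeR adjusted p = 0.0824), UVC replicate 2 (-0.15, 0.135) or photolyase replicate 1 (-0.11, 0.193), and with no filter on low values (-0.12, 0.11). EGFR was lower with active photolyase than after UVC under every one of the 13 alternatives, and by more with library totals as the scaling (-0.47). The antisense gene EGFR-AS1 overlaps EGFR in GENCODE 29, as does AL034417.4 ERRFI1 on the opposite strand, and TGFA-IT1 and AC034102.2 overlap TGFA and ERBB3 on the same strand. Reads of such pairs may not be separable, and their part in these values was not tested.

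ERBB2 (ENSG00000141736), the partner receptor with no known ligand, was the only gene of the 10 called higher after UVC with TMM scaling. Its levels were 15.8 and 15.1 in the control libraries, 24.4 and 24.1 in the UVC libraries and 14.05 and 14.2 in those with active photolyase. The UVC libraries stood above the other 4, and the replicates of a group differed little. ERBB2 rose by 0.65 ± 0.05 after UVC (edgeR adjusted p = 1.8e-08) and was 0.78 lower with active photolyase than after UVC (-0.78 ± 0.05, edgeR adjusted p = 4.39e-09). Against control, active photolyase gave -0.13 ± 0.05 (edgeR adjusted p = 0.0359), a call lost in 10 of 13 alternatives (-0.016 with limma at a pseudocount of 1, adjusted p up to 0.797), among them those without control replicate 1 (0.147), photolyase replicate 1 (0.143) or photolyase replicate 2 (0.104). In GENCODE 29 the opposite-strand genes PGAP3 and MIEN1 overlap ERBB2, and whether counting used strand is not stated, so their reads may not be separable from its own. PGAP3 rose by 0.73 ± 0.08 (from 3.51 to 5.83) and MIEN1 by 0.72 ± 0.06 (from 30.9 to 50.9) after UVC, and both were lower again with active photolyase (-0.63 ± 0.08 and -0.40 ± 0.06). The part of shared reads in the ERBB2 values was not tested.

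ERBB3 (ENSG00000065361), the neuregulin receptor with a weak kinase, had the lowest level of the 3 receptors in every library. Its levels were 9.54 and 9.60 in control, 3.13 and 2.89 under UVC and 7.89 and 8.02 once photolyase was active. Both UVC libraries lay far below control, and the active-photolyase libraries lay between the groups. The fall after UVC was -1.67 ± 0.06 (edgeR adjusted p = 6.29e-12), and the gain with active photolyase over UVC was 1.40 ± 0.06 (edgeR adjusted p = 6.27e-11). With active photolyase ERBB3 remained below control (-0.27 ± 0.05, edgeR adjusted p = 0.00085), a call lost with limma at a pseudocount of 0.1 (adjusted p = 0.053).

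TGFA (ENSG00000163235), which encodes transforming growth factor alpha, a growth signal that keratinocytes make for themselves, changed most. It stood at 136 and 140.4 scaled cRPKM in the control libraries, 4.87 and 5.11 in the UVC libraries and 61.9 and 61.7 in those with active photolyase. The counts behind these levels were 36055 and 36819, 1431 and 1484, and 17596 and 16897 reads, so even the lowest level rested on 1431 reads. The fall after UVC was -4.79 ± 0.06 (edgeR adjusted p = 4.06e-15), or 27.7-fold, and only 9 of the 11926 genes tested had a lower log2 fold change. With active photolyase TGFA was 12.4-fold higher than after UVC (3.63 ± 0.06, edgeR adjusted p = 3.05e-14), and 44 genes had a larger rise. It remained 2.24-fold below control (-1.16 ± 0.05, edgeR adjusted p = 9.11e-10). The 3 groups were far apart, with replicates within 2.92 (SD) of their mean.

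EREG, AREG and EPGN lie side by side among the protein-coding genes of chromosome 4, followed by BTC, in the order EPGN, EREG, AREG, BTC (RefSeq, GRCh38.p14). RefSeq promoter sequences were found for 9 of the 10 genes, ERBB3 being the exception. The 250 bases before a RefSeq start site are shown for EPGN and EREG, for TGFA, the deepest fall, and for ERBB2, the rise. EPGN and EREG are cluster ligands that fell after UVC and were higher with active photolyase than after UVC. The ERBB2 window is the only one found for that gene. PGAP3, which overlaps ERBB2 on the opposite strand, may share its bases. Whether any of these starts was used in these cells was not tested. Capitals mark every match, on either strand, to 4 motifs: the TATA box TATAAA, the AP-1 site TGANTCA, the cAMP response element TGACGTCA and the GC box GGGCGG.
EPGN, chr4:74308220-74308469, plus strand, GRCh38.p14: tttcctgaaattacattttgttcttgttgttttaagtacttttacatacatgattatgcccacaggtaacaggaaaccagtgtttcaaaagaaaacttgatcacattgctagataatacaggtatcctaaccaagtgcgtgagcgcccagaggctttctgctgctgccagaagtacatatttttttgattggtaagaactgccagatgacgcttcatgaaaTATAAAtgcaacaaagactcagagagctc
EREG, chr4:74364895-74365144, plus strand, GRCh38.p14: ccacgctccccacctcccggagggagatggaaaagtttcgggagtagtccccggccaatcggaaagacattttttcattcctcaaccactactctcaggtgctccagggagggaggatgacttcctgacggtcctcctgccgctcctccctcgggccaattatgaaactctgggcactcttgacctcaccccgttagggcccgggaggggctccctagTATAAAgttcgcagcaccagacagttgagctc
TGFA, chr2:70553827-70554076, minus strand, GRCh38.p14: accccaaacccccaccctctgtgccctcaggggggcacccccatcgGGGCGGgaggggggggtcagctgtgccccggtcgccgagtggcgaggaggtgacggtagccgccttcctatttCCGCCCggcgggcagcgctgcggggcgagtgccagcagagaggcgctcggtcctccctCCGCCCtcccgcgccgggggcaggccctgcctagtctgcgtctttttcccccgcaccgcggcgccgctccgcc
ERBB2, chr17:39687844-39688093, plus strand, GRCh38.p14: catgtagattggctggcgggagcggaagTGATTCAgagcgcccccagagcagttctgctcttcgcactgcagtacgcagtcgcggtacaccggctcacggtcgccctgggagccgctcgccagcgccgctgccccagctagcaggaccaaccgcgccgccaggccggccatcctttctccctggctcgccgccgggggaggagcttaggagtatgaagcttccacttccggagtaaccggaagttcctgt

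EREG, EPGN and AREG each held a TATAAA in this window, starting 32, 29 and 29 bases before the start site. Of the 35116 promoters in the table, 10.7% held that motif in a window of the same length. None of the other member promoters at the most upstream start held it. AREG alone held TGACGTCA, 65 bases before its start, a motif found in 1.65% of promoters. ERBB2 alone, of the promoters at the most upstream start, held a match to TGANTCA (6.57% of promoters). That match lies 222 bases before the only ERBB2 start found, in the window that the opposite-strand gene PGAP3 may share. A second EGFR start in the table held 2 matches to TGANTCA and 2 to TATAAA. GC boxes, in 42.6% of promoters, numbered 5 in HBEGF, 3 at the upstream TGFA start, 2 at the upstream EGFR start and 1 each in AREG and ERRFI1. The GC content of the window was 38.0% in EPGN and 58.0% in EREG, against 75.6% at the upstream TGFA start, 76.4% in HBEGF and 73.6% at the upstream EGFR start. Of all promoters, 9.51% had a lower GC content than EPGN, 49.1% lower than EREG and 90.7% lower than the upstream TGFA start. A match is a description of the letters and shows no binding.

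EREG (ENSG00000124882), which encodes epiregulin, a ligand of EGFR and ERBB4, followed TGFA in direction but not in depth. Its levels were 51.2 and 53.7 in control, 11.9 and 12.3 under UVC and 39.6 and 41.4 once photolyase was active, with no overlap between groups. The fall after UVC was -2.12 ± 0.05 (edgeR adjusted p = 2.58e-13) and the gain with active photolyase 1.74 ± 0.05 (edgeR adjusted p = 2.58e-12). The remaining distance to control was -0.37 ± 0.05 (edgeR adjusted p = 2.55e-05), against -1.16 ± 0.05 for TGFA.

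EPGN (ENSG00000182585), which encodes epigen, a ligand of EGFR, showed the same order of groups at a lower level. It stood at 13.8 and 13.3 in the control libraries, 4.85 and 4.28 in the UVC libraries and 10.9 and 11.9 in those with active photolyase. EPGN fell after UVC (-1.57 ± 0.10, edgeR adjusted p = 3.02e-09) and was higher with active photolyase than without (1.31 ± 0.10, edgeR adjusted p = 3.62e-08). Its distance from control with active photolyase was -0.25 ± 0.09 (edgeR adjusted p = 0.023), a call lost in 7 of 13 alternatives (-0.14 with library totals, adjusted p up to 0.172), also without control replicate 1 (0.0737) or photolyase replicate 1 (0.155).

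HBEGF (ENSG00000113070) encodes the heparin-binding ligand that keratinocytes use in wound closure. Among the ligands with readable levels, which leaves out AREG, HBEGF had the highest in every library and the smallest change among those called. Its levels were 185 and 182 in control, 120.3 and 116 under UVC and 172 and 160.03 once photolyase was active. The fall after UVC was -0.63 ± 0.05 (edgeR adjusted p = 8.35e-08), and the gain with active photolyase was 0.49 ± 0.05 (edgeR adjusted p = 1.79e-06). With library totals both kept their call but shrank, to -0.22 and 0.19. The distance from control with active photolyase (-0.14 ± 0.05, edgeR adjusted p = 0.032) lost its call in 8 of 13 alternatives (-0.03 with library totals, adjusted p up to 0.629), also without control replicate 1 (0.0599) or photolyase replicate 2 (-0.09, 0.271).

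BTC (ENSG00000174808), which encodes betacellulin, was barely above the filter. It stood at 0.981 and 1.25 in the control libraries, 1.05 and 1.07 in the UVC libraries and 0.954 and 0.909 in those with active photolyase, from 161 to 214 reads per library. UVC and control overlapped, and BTC was not called in any of the 3 comparisons with TMM scaling (-0.08 ± 0.14, -0.18 ± 0.14 and -0.26 ± 0.15, edgeR adjusted p = 0.606, 0.254 and 0.126). With library totals its UVC value turned to 0.34 and was called higher (edgeR adjusted p = 0.0377), so its direction depended on scaling. It also turned without control replicate 2 (0.11, edgeR adjusted p = 0.541), and without control replicate 1 BTC was called lower with active photolyase than in control (-0.43, edgeR adjusted p = 0.0237).

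AREG (ENSG00000109321), which encodes amphiregulin, a major autocrine ligand of keratinocytes, could not be measured from these values. Its reads numbered 7 and 2 in control, 2 and 1 under UVC and 2 and 2 once photolyase was active. Its deposited cRPKM of 8.67 to 50 came from dividing those reads by an effective length of 2.0 bases, against 798 to 9772 bases for the other 9 genes, so that a single read was worth 7.14 to 8.67 cRPKM. AREG was not called in any comparison (edgeR adjusted p = 0.124, 0.729 and 0.259), and no fold is given for so few reads. Among the 11926 genes tested, 32 had under 10 reads in every library.

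ERRFI1 (ENSG00000116285), the feedback inhibitor of the receptors, moved with the falling ligands and with ERBB3. Its levels were 119 and 117 in the control libraries, 38.9 and 35.3 in the UVC libraries and 94.2 and 85.05 in those with active photolyase, with no overlap between groups. It fell after UVC (-1.67 ± 0.06, edgeR adjusted p = 1.71e-11), was higher with active photolyase than after UVC (1.27 ± 0.06, edgeR adjusted p = 4.4e-10) and stayed below control (-0.40 ± 0.06, edgeR adjusted p = 9.4e-05). Levels in both UVC libraries were far under those of the other 4. As background, EGFR signalling itself induces ERRFI1 in many cell types.

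**Figure D2:**
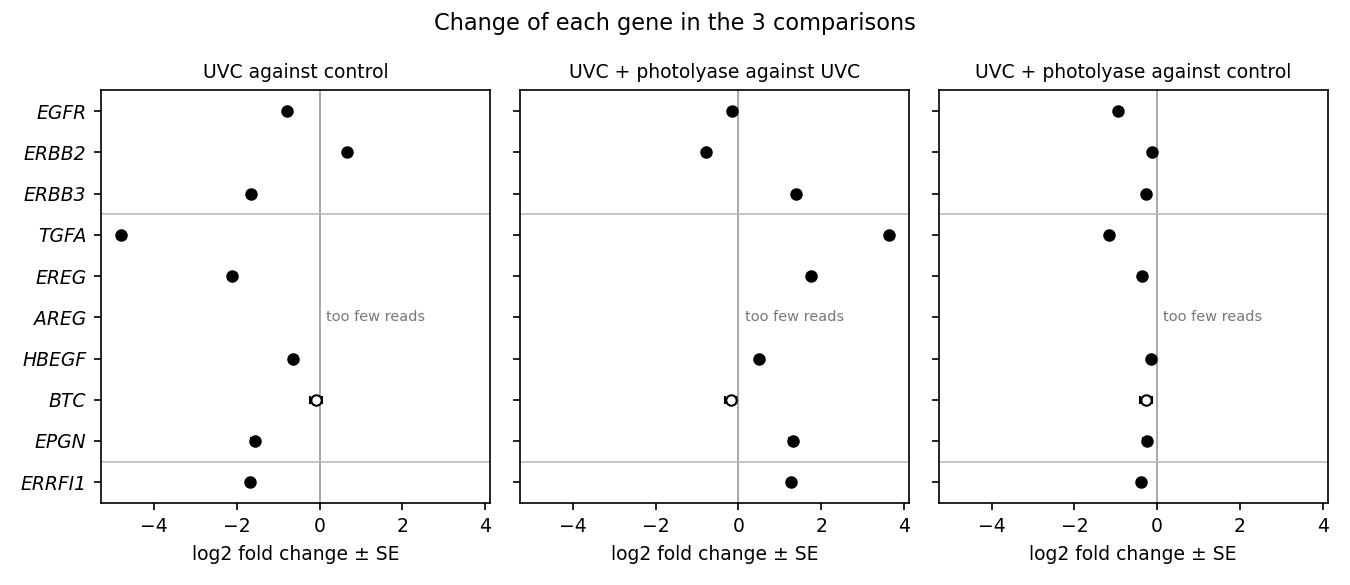
Log2 fold change with SE of each gene in the 3 comparisons, on a shared axis, from the edgeR fit. Filled points were called, open points were not, and AREG is left out for its few reads. TGFA reaches -4.79 after UVC and 3.63 with active photolyase, ERBB2 goes the other way in both, and EGFR stays left of 0 in all 3 panels.

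Receptors and ligands are set side by side here, with no test between the sets. After UVC 1 receptor rose and 2 fell (median -0.78), while of 6 ligands none rose, 4 fell and 2 were not called (median -1.61, or -1.57 without AREG). The median over all genes tested was 0.00. Of active photolyase against UVC, 1 receptor rose and 2 fell (median -0.16), and 4 of 6 ligands rose and none fell (median 0.90, or 1.31 without AREG). The median over all genes was -0.04. Each pair of comparisons shares a group of libraries (UVC here, control or active photolyase in the others), so a fall in the first and a rise in the second are not independent. Against control, active photolyase left all 3 receptors (median -0.27) and 4 of 6 ligands (median -0.32, or -0.26 without AREG) called lower, and none of the 10 higher. With library totals 5 of the 10 were called lower. The median over all genes was 0.01. With edgeR at an unadjusted p under 0.05 no further ligand passed in any comparison. BTC was called lower than after UVC in 4 alternatives (-0.49 to -0.17, adjusted p = 0.00551 to 0.0306). No test was run on the medians. Calls were common among all genes, so that a member passing the threshold did not by itself set it apart.

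The split of calls depended on scaling, and so did the near-even shares over all genes given here with TMM. TMM takes most genes as unchanged, whereas 85.6% of the genes tested were called after UVC. Its factors were 0.887 and 0.885 in control and 1.180 and 1.182 in the UVC libraries. With library totals 7091 genes rose and 3546 fell after UVC (5074 and 5140 with TMM), 3324 rose and 6939 fell between active photolyase and UVC (4676 and 4755), and 5228 rose and 2848 fell against control (3933 and 3919). The median of all genes moved from 0.00, -0.04 and 0.01 to 0.42, -0.34 and 0.12, and the value of each pathway gene given below shifts by about as much. The 8 members called after UVC kept direction and call under all 13 alternatives, but the size of the smaller ones moved with library totals, to -0.37 for EGFR, -0.22 for HBEGF and 1.07 for ERBB2.

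Ratios within a library do not depend on scaling, and here too the groups were apart. The summed cRPKM of the 5 readable ligands over that of the 3 receptors was 2.91 and 2.71 in control, 1.54 and 1.48 under UVC and 3.63 and 3.32 once photolyase was active. Relative to receptor transcripts, those of the readable ligands were thus lowest after UVC and highest with active photolyase, where EGFR was at its minimum. AREG is not in this ratio, and its part is unknown. The groups did not overlap, but an exact two-sided permutation test of 2 libraries against 2 cannot give a p below 0.333, so none was run. ERBB2 made up 14.7 and 12.7% of the EGFR level in control. That share was 37.5 and 36.3% for the UVC libraries and 24.8 and 23.4% for active photolyase. With active photolyase this ratio lay between its control and UVC values, with ERBB2 near its control level and EGFR below. ERRFI1 stood at 111 and 98.2% of EGFR in control, 59.6 and 53.04% under UVC and 166 and 139.8% once photolyase was active.

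The mix of transcripts of the readable ligands shifted as well. Sums, shares and order here leave out AREG, whose level is unknown and could change them. TGFA held 35.2 and 36.0% of the summed ligand cRPKM in the control libraries, 3.41 and 3.69% in the UVC libraries and 21.7 and 22.4% in those with active photolyase. HBEGF went the other way, at 47.7 and 46.6%, then 84.1 and 83.6%, then 60.3 and 58.0%, although its own level fell after UVC. EREG held 13.2 and 13.7%, 8.34 and 8.85%, and 13.9 and 15.02%. The order of levels in control was HBEGF, TGFA, EREG, EPGN, BTC, and after UVC it was HBEGF, EREG, then TGFA and EPGN, then BTC. In UVC replicate 1 TGFA and EPGN were at 4.87 and 4.85 scaled cRPKM, so those neighbours did not differ beyond their spread. With active photolyase the control order was back. Set against its receptor, TGFA stood at 1.27 and 1.18 times the EGFR cRPKM in the control libraries, 0.0747 and 0.0769 in the UVC libraries and 1.09 and 1.01 in those with active photolyase.

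**Figure D3:**
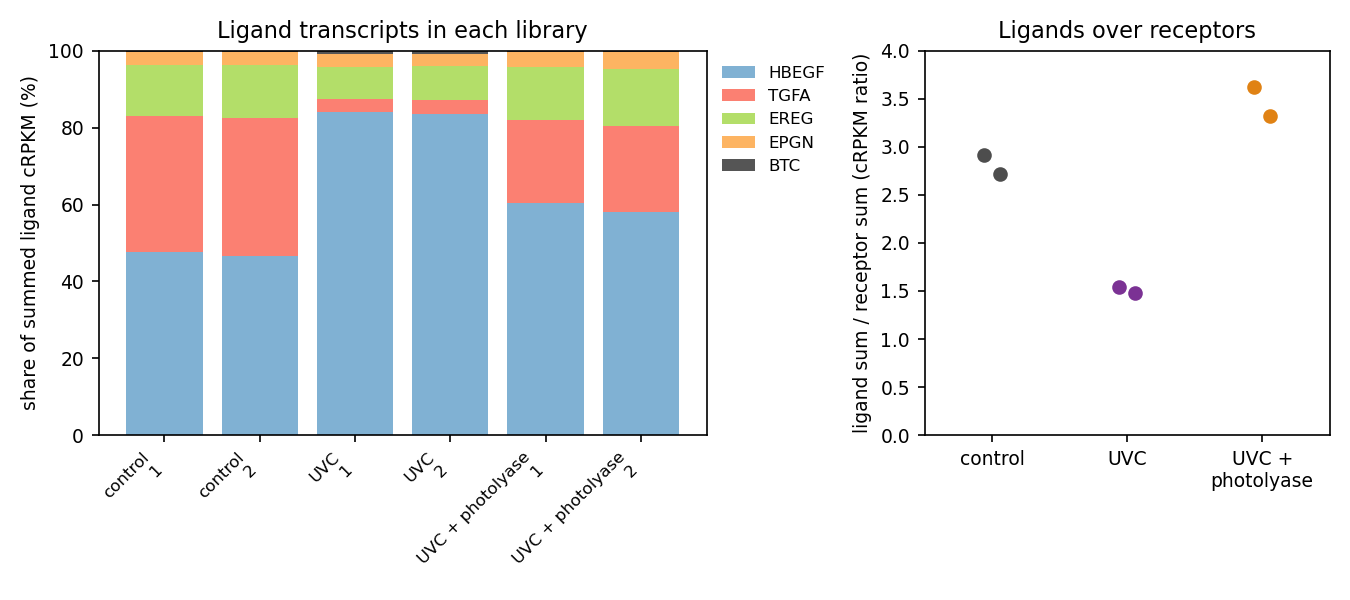
Left, share of each of 5 readable ligands in their summed cRPKM, AREG being left out (%, stacked bars, a bar for each library, numbered by replicate). Right, ratio of the summed cRPKM of the same 5 ligands to that of the receptors, a point for each library. TGFA shrinks from 35.2 and 36.0% to 3.41 and 3.69% after UVC, and the ratio is lowest after UVC, at 1.54 and 1.48.

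EGFR and TGFA, which stayed furthest below control with active photolyase among the 9 readable genes, are also the longest of them. In GENCODE 29, which is on GRCh38 and not on the build of the files, EGFR spans 193 kb and TGFA 107 kb, against 6.84 kb for EPGN, 13.8 kb for HBEGF, 21.9 kb for ERRFI1, 23.6 kb for EREG, 26.7 kb for ERBB3, 42.5 kb for ERBB2 and 49.9 kb for BTC. Over all genes tested with a span in that annotation, the 2041 of at least 100 kb had a median of -0.32 (quartiles -0.66 and 0.02) for active photolyase against control. The 2455 genes under 10 kb had a median of 0.25 (quartiles 0.02 and 0.53). For active photolyase against control, EGFR (-0.95) and TGFA (-1.16) lay below the lower quartile of the long genes. After UVC the medians were -0.23 for the long and 0.38 for the short genes, and EGFR (-0.78) lay within the quartiles of the long genes (-1.07 and 0.39) and TGFA (-4.79) far outside them. This comparison by span was chosen after the values were seen, and whether span has a part in these levels was not tested.

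The genes with the most similar course over the 6 libraries were found by the distance between centred log2 levels, among 7912 genes of at least 5 cRPKM on average. For TGFA they were LMO7 (distance 0.166), MACC1 (0.253) and BCAR3 (0.295), with log2 fold changes after UVC of -4.56, -5.06 and -4.44. For EREG they were TOP1, which encodes topoisomerase I (0.0935), TMC7 (0.0988) and RNF4 (0.101). For EGFR they were ANO6 (0.0989), SIPA1L1 (0.104) and ABCC1, a drug efflux transporter (0.127), with -1.01, -1.06 and -0.93 for active photolyase against control. ERBB2 lay nearest TCF12 (0.0651), the kinase gene PAK6 (0.0724) and LIMCH1 (0.0727), and ERRFI1 nearest DDIT4, a stress-induced inhibitor of mTORC1 signalling, and CDR2 (both 0.114) and the junction gene JUP (0.119). A small distance says only that levels ran alike in these libraries.

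Other family members added the neuregulins, ligands of ERBB3 and ERBB4. NRG1 was the only one at a sizeable level, with 26.6 and 27.01 scaled cRPKM in the control libraries, 6.73 and 6.79 in the UVC libraries and 9.68 and 11.4 in those with active photolyase. It fell after UVC (-1.99 ± 0.07, edgeR adjusted p = 8.38e-12) and stood below control with active photolyase (-1.34 ± 0.07, edgeR adjusted p = 3.75e-09). Between active photolyase and UVC it was higher (0.64 ± 0.07, or 0.34 with library totals). The scarce NRG4 (1.47 and 1.20 in control, 3.40 and 2.97 after UVC) rose after UVC by 1.26 ± 0.16, and NRG2 (1.06 and 0.995, then 1.59 and 1.54) by 0.61 ± 0.12. Both were lower again with active photolyase (-0.85 ± 0.15 and -0.85 ± 0.12). EGF (7 to 22 reads per library), NRG3 (8 to 32) and the receptor gene ERBB4 (18 to 40) were under the filter and were not tested.

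Of 9 tested genes that process the ligands, 3 were higher after UVC, 5 lower and 1 not called (median -0.20). All genes tested were also divided, with 42.5% higher and 43.1% lower (median 0.00), so the counts do not set this list apart. With library totals 5 were higher and 4 lower (median 0.22), against 7091 and 3546 of all 11926 genes (median 0.42). FRMD8, which encodes a partner that stabilises the iRhom and ADAM17 sheddase complex, fell from 85.1 to 13.1 scaled cRPKM (-2.70 ± 0.05, edgeR adjusted p = 3.95e-14) and was higher with active photolyase (2.05 ± 0.05). ADAM10, a sheddase, fell (-1.10 ± 0.06). Its gain with active photolyase of 0.19 ± 0.06 turned to -0.12 with library totals. RHBDL2, a rhomboid protease (0.83 ± 0.06), and ADAM15 (0.37 ± 0.05) rose after UVC and were lower with active photolyase than after UVC (-0.38 ± 0.06 and -0.40 ± 0.05).

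Downstream of the receptors, 13 of 17 adaptors and genes of the RAS and ERK cascade fell after UVC, 3 rose and 1 was not called (median -0.61). With library totals 9 fell and 4 rose (median -0.19). Among all genes tested 43.1% fell and 42.5% rose (median 0.00), or 3546 and 7091 of 11926 with library totals (median 0.42). The scaffold genes KSR1 (-1.69 ± 0.11) and GAB1 (-1.57 ± 0.08) fell furthest, and MAPK3, which encodes ERK1, and HRAS rose (0.67 ± 0.06 and 0.28 ± 0.06). Against UVC, active photolyase gave 9 rises and 4 falls (median 0.16), and library totals 7 and 9 (median -0.15). The shares over all genes were 39.2% and 39.9% (median -0.04), or 3324 and 6939 genes with library totals (median -0.34). In the PI3K, AKT, PLCG1, STAT and SRC arm 7 of 13 fell and 3 rose after UVC (median -0.18). With library totals the majority reversed, as 5 fell and 7 rose (median 0.24). SRC, a kinase that acts with EGFR, fell from 47.6 to 11.25 (-2.08 ± 0.05) and PIK3CA, a catalytic subunit of PI3K, by 1.09 ± 0.06, whereas PLCG1, a phospholipase recruited by EGFR (1.33 ± 0.06), and the PI3K regulatory subunit gene PIK3R2 (0.96 ± 0.05) rose. PLCG1 stayed above control with active photolyase (0.71 ± 0.06, edgeR adjusted p = 1.85e-07).

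Negative regulators of the receptors and of RAS fell in 13 of 16 cases after UVC and rose in 2 (median -0.81), or 10 and 3 with library totals (median -0.39). All genes tested fell in 43.1% and rose in 42.5% of cases (median 0.00), or 3546 and 7091 of 11926 with library totals (median 0.42). SPRED2 (-2.18 ± 0.08), a brake on RAS signalling, and the phosphatase gene PTPN1 (-1.81 ± 0.05) fell furthest. The cytokine-induced SOCS3 (1.31 ± 0.06) and LRIG3 (0.70 ± 0.08) rose. With active photolyase 11 were higher than after UVC and 2 lower (median 0.56), or 9 and 5 with library totals (median 0.25). Over all genes 39.2% were higher and 39.9% lower, or 3324 and 6939 genes with library totals. Of genes for endocytosis and sorting of the receptors 9 of 10 fell after UVC and none rose (median -0.88), with STAM at -1.98 ± 0.07 and the clathrin heavy chain gene CLTC at -1.69 ± 0.06. EPN1, the remaining one and named for that reason after its value was seen, had 0.03 ± 0.05 (edgeR unadjusted p = 0.569, adjusted p = 0.592) and was called higher with library totals, where 7 fell (list median -0.47). With active photolyase 7 of them were higher than after UVC and 9 were still below control (median 0.29, then -0.37). With library totals the first of these medians turned to -0.02, and 4 rose and 3 fell against UVC. Between active photolyase and control, 32.9% of all genes tested were lower and 33.0% higher (median 0.01).

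Genes that ERK signalling induces, many of which feed back on it, moved in both directions. Of 11 tested, 8 fell and 3 rose after UVC (median -1.37), and 8 rose and 3 fell with active photolyase against UVC (median 1.39), with the same counts under library totals. Over all genes tested 43.1% fell and 42.5% rose after UVC, and 39.2% rose and 39.9% fell with active photolyase against UVC. Both medians are the SPRY4 value. SPRY2 and SPRY4 are also counted among the negative regulators above, so the lists are not separate. The ERK phosphatase genes DUSP4 (76.2 to 17.5 scaled cRPKM, -2.12 ± 0.06) and DUSP5 (94.7 to 24.0, -1.98 ± 0.06) fell, and both were higher with active photolyase (1.93 ± 0.06 and 2.08 ± 0.06). The immediate-early genes IER3 (1.15 ± 0.06) and EGR1 (0.77 ± 0.06) rose, from 185 to 410.001 and from 76.6 to 130.2, and were lower with active photolyase (-0.89 ± 0.06 and -0.74 ± 0.06). Against control, active photolyase left 3 of the 11 higher, 2 lower and 6 not called (median 0.02), or 5 higher and 1 lower with library totals. Of the 10 receptor, ligand and inhibitor genes 8 were called lower in that comparison, or 5 with library totals. Over all genes tested, 32.9% were called lower there and 33.0% higher, or 2848 and 5228 genes with library totals.

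**Figure D4:**
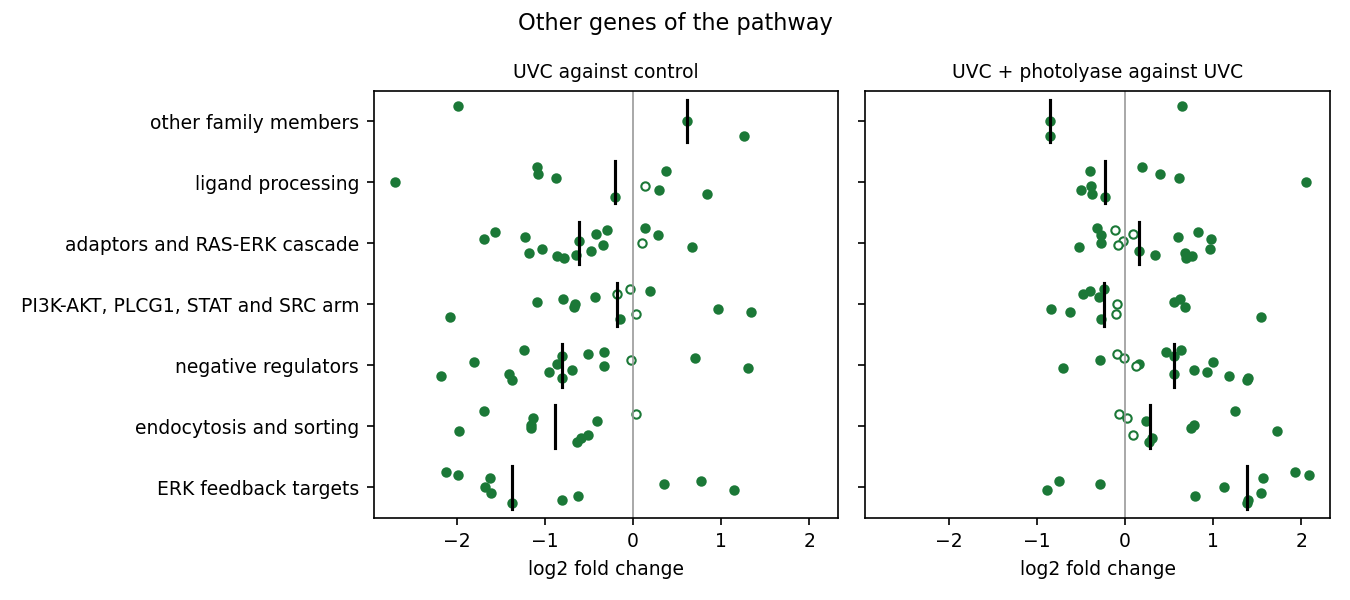
Log2 fold change of each tested gene of 7 lists of the pathway, after UVC against control (left) and with active photolyase against UVC (right), on a shared axis. Filled points were called, open points were not, and the black bar is the list's median. The median of ERK feedback targets, in both panels the SPRY4 value, is -1.37 on the left and 1.39 on the right. SPRY2 and SPRY4 are plotted in that list and among the negative regulators.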

How the data were processed

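Reads of 6 RNA libraries (Illumina TruSeq preparation, as the labels' protocols state) were aligned to hg19 using Bowtie, per the submitters' processing notes. Aligner version, annotation, counting rule and strand use were not given in the sources used here. The deposited files list 19847 Ensembl genes with raw read counts and with cRPKM (corrected RPKM), which by its values is the count over an effective length and the library total. The same 354 genes had no value in any library. Of the remaining 19493 identifiers 18913 matched a symbol.

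Gene counts entered edgeR 4.0.16 under R 4.3.3 (quasi-likelihood F test, TMM factors, 3 group means over all 6 libraries, 3 residual degrees of freedom, common biological variation 4.62%), two-sided, with Benjamini-Hochberg adjustment over 11926 genes at 1 cRPKM or more in 2 libraries. SE came from the fold change and F. Replicates of each group differed by more than sampling noise (chi-square per degree of freedom 5.61 to 24.3). The alternatives were library totals, DESeq2 1.42.0, no filter, a filter of 5 cRPKM, limma 3.58.1 on log2(cRPKM + 1), also with a pseudocount of 0.1 or median-centred, a replicate block, only the 2 groups compared, and leaving out each library.

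The members and lists were chosen with earlier results of these data known. Named genes were the 10 members, for each pathway list up to 2 largest called rises and falls after UVC, and the 3 genes nearest in course to each of EGFR, ERBB2, TGFA, EREG and ERRFI1. Further, PGAP3 and MIEN1 were named for their overlap with ERBB2. Promoters are RefSeq's on GRCh38.p14.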

Additional observations from a re-analysis of the deposited data

How the results depend on the processing

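The 8 members called after UVC, and TGFA, EREG, ERBB2, ERBB3, HBEGF, EPGN and ERRFI1 between active photolyase and UVC, kept direction and call under all 13 alternatives, as did EGFR, TGFA, EREG and ERRFI1 between active photolyase and control. The BTC change after UVC turned to 0.3354 with library totals, 0.183 and 0.3227 with limma at pseudocounts of 1 and 0.1, 0.05488 with limma median-centred, and ran from -0.246 to 0.1071 when 1 library was left out (positive without control replicate 2). AREG was called lower after UVC with limma median-centred (adjusted p = 0.0424), on its 1 to 7 reads.

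After UVC, members called higher numbered 2 with library totals and with limma at either pseudocount, BTC being the added one. The receptor median was -0.368 with library totals, -0.8753 with no filter, -0.6649 with a filter of 5 cRPKM, -0.362 and -0.3657 with limma at pseudocounts of 1 and 0.1, and -0.4901 median-centred, and -0.8562 to -0.7069 with 1 library left out. It is the EGFR value throughout. Between active photolyase and UVC, members called lower numbered 1 with no filter and 1 to 2 with 1 library left out, EGFR being the one lost. The receptor median was -0.4691, -0.119, -0.2598, -0.4629, -0.4693 and -0.3766 under the same 6 settings in that order, and -0.2512 to -0.1142 with 1 library left out. The ligand median was 0.5971 with library totals, 1.218 with the filter of 5 cRPKM (which removes BTC), 0.5644, 0.6279 and 0.6507 with limma, and 0.8461 to 1.187 with 1 library left out. Against control, members called lower numbered 5 with library totals, with limma at a pseudocount of 1 and with limma median-centred, and 4 with limma at 0.1. The receptor median, there the ERBB3 value, was -0.1559 with library totals, -0.3134 with no filter, -0.139, -0.1544 and -0.1808 with limma. Limma on cRPKM, like library totals, applies no TMM factor. Beyond that, the cause was not tested.

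Replicate numbers are shared between groups, but the deviations of same-numbered libraries correlated at only -0.0201, 0.0468 and 0.179 (control with UVC, control with photolyase, UVC with photolyase), and 2 numbers cannot show a pairing. The replicate block gave 5086 higher and 5152 lower genes after UVC, 4690 and 4790 between active photolyase and UVC, and 3981 and 3956 against control, and changed no member's call. The changes of ERBB2, HBEGF and EPGN between active photolyase and control shrank to -0.01648, -0.03294 and -0.1426 with library totals and were not called there. AREG could not be read at its depth.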
